A study of Mus musculus with 11 samples.

Results

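The genes described here are 10 genes of the bone morphogenetic protein (Bmp) pathway in the limb bud: the antagonist Grem1, the ligands Bmp2, Bmp4 and Bmp7, and the response genes Msx1, Msx2, Id1, Id2, Id3 and Smad6. They were picked by gene name from a table of 47517 gene names, a rule that uses no measured value but was set with earlier results of these data known, and all 10 were found and had enough reads to be tested. RNA-seq counts came from forelimb buds of C57BL/6 mouse embryos at stage E10.5 (days after conception), when the bud is an outgrowth of mesenchyme under an ectodermal ridge. The 6 mutant libraries came from Gmnn f/f; Prx-Cre embryos, with both alleles of Gmnn (Geminin, a regulator of replication licensing) floxed, and the 5 control libraries from Gmnn +/f; Prx-Cre embryos, with 1 floxed and 1 wild-type allele. Both groups thus carried Prx-Cre, a transgene active in limb bud mesenchyme, and at least 1 floxed allele, so that no library here comes from an embryo without Cre. Cells in which Prx-Cre is not active, such as ectoderm, endothelium and blood, keep their Gmnn alleles in both groups. Embryos were matched by litter and by somite number, and the 11 libraries come from 4 litters. Controls 1 and 2 shared litter A with mutants 1 and 2. In litter B control 3 stands beside mutant 6, in litter C control 4 beside mutant 5, and in litter D control 5 beside mutants 3 and 4.

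Bmp ligands are secreted dimers of the transforming growth factor β family. They bind pairs of type I and type II receptors, which phosphorylate Smad1, Smad5 and Smad9, and these enter the nucleus with Smad4 and switch on response genes. In the limb bud, Bmp signalling sets the dorsal and ventral sides, restrains the apical ectodermal ridge and later directs cell death and cartilage formation. Grem1 (Gremlin 1) is made by posterior mesenchyme, traps Bmp2, Bmp4 and Bmp7 outside the cell and so protects the ridge, which closes a loop between Sonic hedgehog (Shh) in the posterior mesenchyme and Fgf ligands in the ridge. The title of the series places its question in the control of Hox genes in limb patterning, and 5′ Hox genes of the HoxA and HoxD clusters are known upstream regulators of Grem1 and Shh.

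Grem1 has the largest difference of the members between the groups, and Id2 and Id3 have the highest levels, so the sequence around their start sites is shown. RefSeq promoter windows (GRCm38.p6, the assembly of mm10) were matched for 7 of the 10 members. The other members are Bmp2, Bmp7 and Id1. The windows below are 300 bases long and read 5′ to 3′ on the gene's strand, and capitals mark 2 motifs that Smad proteins are known to bind: GGCGCC, which is its own reverse complement, and CAGAC on either strand. The Grem1 window is chr2:113758599-113758898 (minus strand), that of Id2 is chr12:25096043-25096342 (minus strand), and that of Id3 is chr4:136143572-136143871 (plus strand).
Grem1: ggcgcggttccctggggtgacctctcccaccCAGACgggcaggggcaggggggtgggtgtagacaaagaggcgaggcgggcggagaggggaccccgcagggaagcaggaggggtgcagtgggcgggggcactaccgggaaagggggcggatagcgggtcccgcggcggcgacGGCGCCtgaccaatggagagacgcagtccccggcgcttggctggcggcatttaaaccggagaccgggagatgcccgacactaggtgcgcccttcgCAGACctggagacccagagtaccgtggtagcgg
Id2: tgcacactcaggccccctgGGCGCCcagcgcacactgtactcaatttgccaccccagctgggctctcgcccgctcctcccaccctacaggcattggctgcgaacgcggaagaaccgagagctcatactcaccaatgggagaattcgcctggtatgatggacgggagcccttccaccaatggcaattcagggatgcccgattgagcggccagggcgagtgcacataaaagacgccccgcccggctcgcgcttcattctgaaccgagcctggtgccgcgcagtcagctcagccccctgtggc
Id3: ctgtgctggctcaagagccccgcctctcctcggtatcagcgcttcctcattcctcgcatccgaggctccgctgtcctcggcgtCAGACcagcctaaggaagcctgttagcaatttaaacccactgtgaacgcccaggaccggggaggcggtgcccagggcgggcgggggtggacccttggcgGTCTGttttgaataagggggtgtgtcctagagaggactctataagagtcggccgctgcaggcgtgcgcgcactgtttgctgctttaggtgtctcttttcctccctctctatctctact
The Grem1 window held 1 copy of GGCGCC and 2 of CAGAC, the Id2 window 1 of GGCGCC, and the Id3 window 2 of CAGAC, and the 2 motifs did not overlap in them. The windows of Bmp4, Msx1, Msx2 and Smad6 held neither. Over all 32851 windows of that length, 11.9% held GGCGCC and 49.6% held CAGAC on either strand, against 2 and 2 of the 7 member windows. GGCGCC followed after 5 bases by GTCT, a spacing known from Bmp response elements, was in 24 of all windows on either strand and in 0 of the 7. A match is a description of letters and not a binding site.

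Each library is 1 column of raw counts, and totals were 14777833 to 19733288 in the 5 control libraries and 14721181 to 17034741 in the 6 mutant libraries. Levels are given as CPM, the usual count scaled for depth, with library totals adjusted by TMM factors. Gmnn fell in mutants, with 139 to 239 CPM in controls and 99.5 to 138 CPM in mutants (log2 fold change -0.67, SE 0.10, edgeR quasi-likelihood test, adjusted p 0.0291), and lost that call in 12 of 23 alternatives. Its groups did not overlap and it was lower in 4 of 4 litters. Control 5 stood apart from the other controls in distal Hox and Shh response genes, given below, and without it 850 genes passed instead of 345, with 0 members among them in both fits. As a check of the tissue, the forelimb factor Tbx5 stood at 64.8 to 123 CPM and the hindlimb factors Tbx4 and Pitx1 at no more than 6.11 and 4.07 CPM. Summed markers of limb mesenchyme (8 genes, Msx1 among them, led by Prrx1 at 199 to 313 CPM over all libraries) were 779 to 1044 CPM in controls and 746 to 875 CPM in mutants. The ridge marker Sp6 stood at no more than 0.0701 CPM. Of its exon bases 86.7% lie in another gene, so that its count is uncertain. For ridge and surface ectoderm (10 genes, Sp6 among them) the sums were 229 to 462 and 280.1 to 382 CPM. For endothelium (8 genes) they were 140.5 to 217 and 117 to 196 CPM. For red cells (6 genes) they were 12998 to 33385 and 16279.8 to 56076 CPM, for macrophages (6 genes) 6.73 to 25.2 and 10.6 to 33.1 CPM, and for muscle precursors (5 genes) 50.1 to 81.7 and 48.6 to 88.3 CPM. Neural crest markers (4 genes) summed to 7.89 to 14.4 and 5.95 to 11.2 CPM. The 4 neural tube markers summed to no more than 1.12 CPM, and of these Olig2 had no read in any library. All of these ranges overlap between the groups. Gene by gene, log2 fold changes were positive in 6 of 6 red cell markers (median 0.57) and 6 of 6 macrophage markers (median 0.65). They were negative in the 3 neural crest markers tested (median -0.48). Of the 5 muscle precursor markers 3 had positive and 2 negative values, and 3 had an unadjusted edgeR p under 0.05, where 21.4% of all genes had. Those were Lbx1 (0.82), Myf5 (-1.25) and Myod1 (-2.10, at no more than 2.62 CPM). Of these lists 0 genes passed by edgeR. Of the 8 limb mesenchyme markers 4 had positive and 4 negative values, and 6 had an unadjusted edgeR p under 0.05 (21.4% of all genes had). Of these Prrx2 (0.24), Twist1 (0.25) and Lhx2 (0.27) were higher, and Tbx5 (-0.28), Pdgfra (-0.44) and Lhx9 (-0.50) were lower. Only Lhx9, a limb bud homeobox gene, passed (edgeR adjusted p 0.0406), with no overlap of the groups. The part of cell makeup in the results below was not tested. In such bulk tissue, fewer cells that make a transcript and less transcript per cell cannot be told apart.

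Levels of different genes were compared per length, as RPKM (CPM per kilobase of exon). The Id genes, which encode helix-loop-helix proteins that hold back basic helix-loop-helix factors, stood far above the rest. Over the 11 libraries the mean level was 566 RPKM for Id3, 484 for Id2 and 167 for Id1. The ligand Bmp4 followed at 53.0 RPKM, then the homeobox gene Msx1 at 27.5, the ligand Bmp7 at 13.4 and the homeobox gene Msx2 at 7.48. Lowest were Grem1 at 4.78 RPKM, the inhibitory Smad gene Smad6 at 1.80 and the ligand Bmp2 at 0.723. Id3 was thus 783 times Bmp2. Neighbours in this order did not overlap in their range over libraries, except for Id3 and Id2, where Id3 was higher in 9 of 11 libraries, and for Msx2 and Grem1, where Msx2 was higher in 11 of 11. RPKM rests on the summed exon length of all transcripts of a gene, so that a gene mostly read from a short transcript appears lower.

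**Figure D1:**
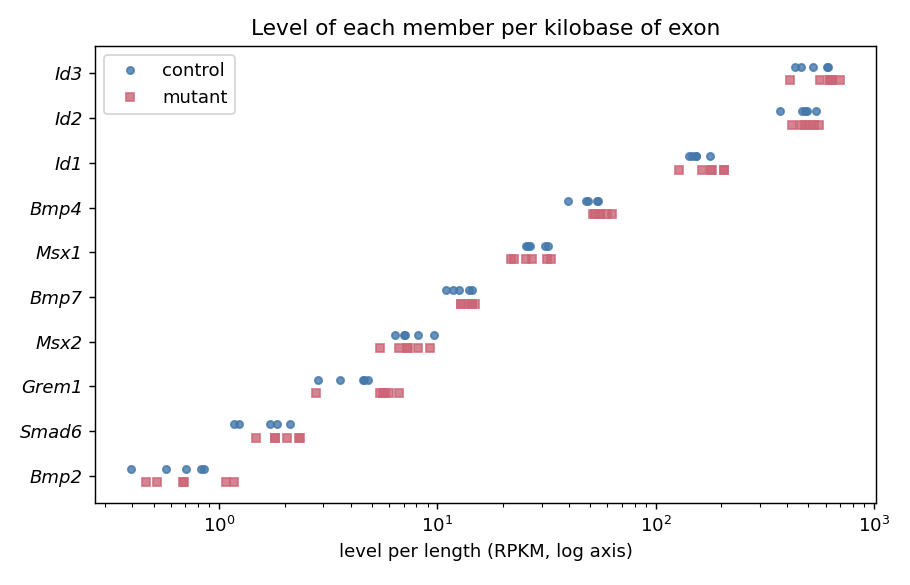
Level of each member per kilobase of exon (horizontal log axis, RPKM), with 1 point per library, circles for the 5 controls and squares for the 6 mutants. The Id genes lie above 100 RPKM and Bmp2 near 1, and the points of both genotypes overlap in each row.

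Within families, the shares of the members in each library were nearly the same in the groups. Of the summed RPKM of the 3 ligands, Bmp4 made up 78.5% ± 1.47 (SD, n = 5) in controls and 79.3% ± 1.97 (SD, n = 6) in mutants. Bmp7 made up 20.5% ± 1.68 (SD, n = 5) and 19.6% ± 1.73 (SD, n = 6), and Bmp2 1.07% ± 0.270 (SD, n = 5) and 1.08% ± 0.404 (SD, n = 6). Bmp4 transcripts were therefore the main Bmp message of those counted, whichever the genotype. Of the summed RPKM of the 3 Id genes, Id3 held 45.7% ± 2.71 (SD, n = 5) in controls and 46.8% ± 3.62 (SD, n = 6) in mutants, Id2 40.8% ± 2.61 (SD, n = 5) and 39.3% ± 4.12 (SD, n = 6), and Id1 the rest. Msx1 was 3.75 ± 0.651 (SD, n = 5) times Msx2 in controls and 3.70 ± 0.581 (SD, n = 6) times in mutants. The ratio of Grem1 to the summed ligands was 0.0668 ± 0.0191 (SD, n = 5) in controls and 0.0754 ± 0.0182 (SD, n = 6) in mutants. No test was run on these ratios. Each difference is smaller than the SD within groups, which includes the spread between litters. By litter, the ratio of Grem1 to the ligands was 0.0925 and 0.0591 in controls and 0.0788 and 0.0746 in mutants of litter A. It was 0.0753 in the control and 0.0937 in the mutant of litter B, and 0.0663 and 0.0869 in litter C. In litter D it was 0.0409 in the control and 0.0770 and 0.0411 in the mutants.

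No member passed the threshold between mutants and controls (edgeR's quasi-likelihood test, blocked by litter, at a Benjamini-Hochberg adjusted p under 0.05). The count was 0 of 10, where 2.18% of the 15821 genes tested passed. At an unadjusted p under 0.05 it was 2 of 10 (Grem1 and Bmp4), where 21.4% of all genes were. By DESeq2 1 member passed (Grem1), where 1194 of all genes did, and by limma-voom 0, where 439 did. The median log2 fold change of the 10 was 0.14, from -0.09 in Msx1 to 0.47 in Grem1, with 8 positive and 2 negative values, and the median over all genes tested was 0.00382. For no member did the libraries of the groups separate, where 2.59% of all genes did. The difference had the same sign in all 4 litters for 1 member (Grem1), where 26% of all genes did. The 95% intervals of the 10 fold changes lie between 0.708-fold (lower bound of Bmp2) and 1.75-fold (upper bound of Grem1), so that a change outside this span is not within the interval of any member.

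**Figure D2:**
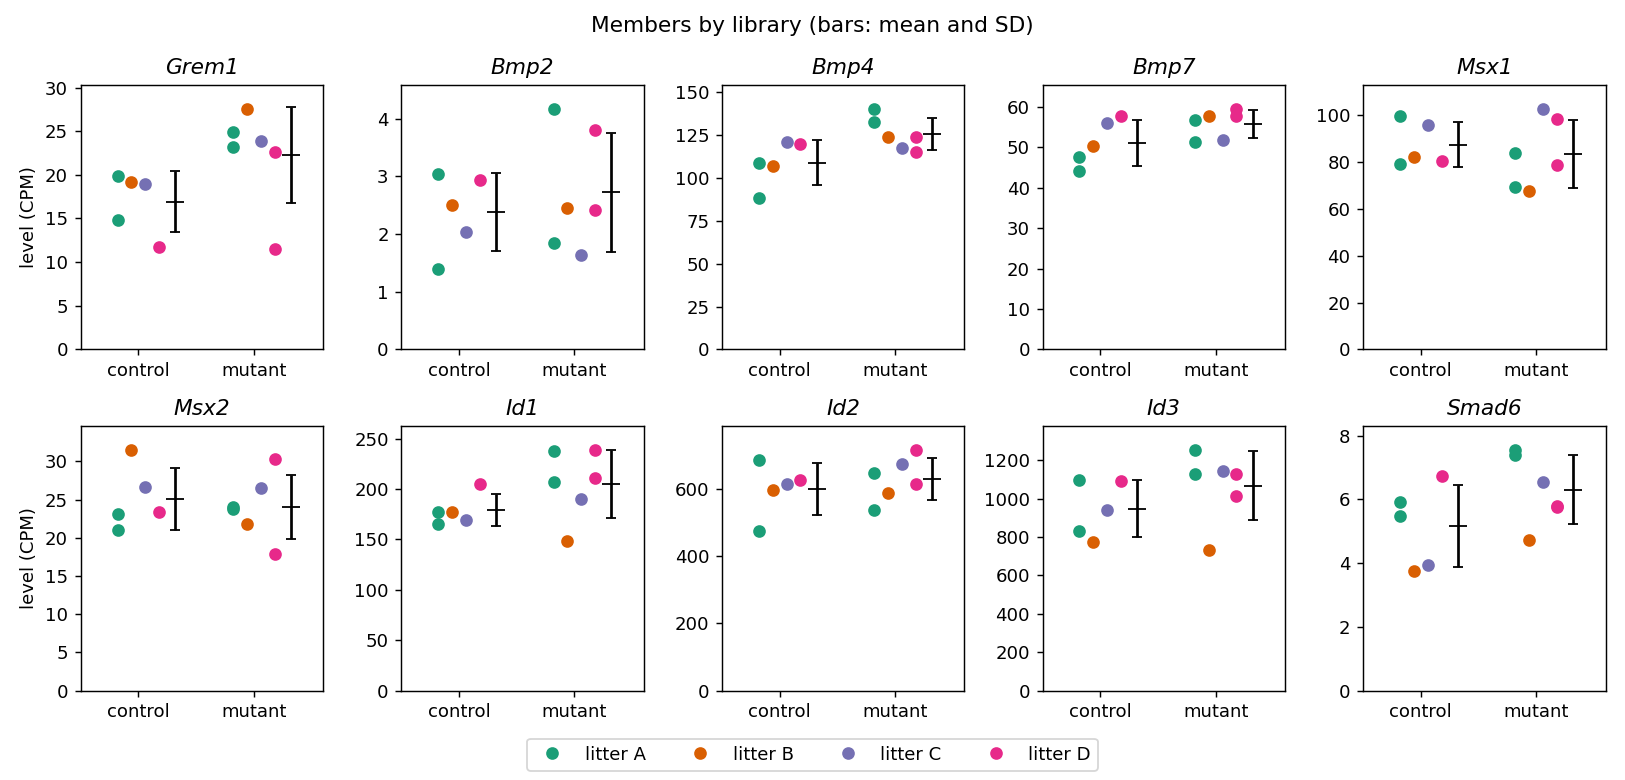
Level of each member in each library (vertical axis, CPM, starting at 0), for 5 controls and 6 mutants, coloured by litter, with the group mean and SD as bars. The groups overlap in each panel, and Grem1 is lowest in control 5 (11.7 CPM) and mutant 4 (11.5 CPM), both of litter D.

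Among antagonists, Grem1 (chromosome 2, 113746164 to 113758646, minus strand, mm10) stood at 19.9, 14.9, 19.1, 18.9 and 11.7 CPM in controls 1 to 5. In mutants 1 to 6 it stood at 24.9, 23.2, 22.6, 11.5, 23.8 and 27.5 CPM. Mutants other than mutant 4 were above all controls, and mutant 4 was below all of them, so that the groups overlap through 1 library. The means were 16.9 ± 3.51 CPM (SD, n = 5) and 22.3 ± 5.54 CPM (SD, n = 6). The log2 fold change was 0.47 (SE 0.15, 95% interval 0.14 to 0.81), or 1.39-fold, and it did not pass (edgeR unadjusted p 0.00975, adjusted p 0.112). It was 0.48 in litter A, 0.52 in litter B, 0.33 in litter C and 0.46 in litter D. Without litter D, controls spanned 14.9 to 19.9 CPM (n = 4) and mutants 23.2 to 27.5 CPM (n = 4), and edgeR gave 0.45 with an adjusted p of 0.0795. The call depended on the tool and filter: the adjusted p was 0.0354 with DESeq2 and 0.00559 with edgeR without a filter on low counts. In these settings 1194 and 1566 of all genes passed. Without control 5 the log2 fold change was 0.45 (adjusted p 0.163). Without mutant 4 the log2 fold change was 0.54 with an adjusted p of 0.0691, and over all 23 alternatives it was 0.36 to 0.59, with adjusted p up to 0.441. No exon base of Grem1 lies in another gene of the annotation counted, and its longest run of T in a transcript is 6 bases.

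Levels of Grem1 were set beside those of the HoxD genes Hoxd11, Hoxd12 and Hoxd13, of Hoxa13, and of the Shh response genes Gli1 (a transcription factor) and Ptch1 (the Shh receptor). Control 5 had the lowest level of Hoxd13 (3.15 CPM, against 13.2 to 36.0 in the other controls), of Gli1 (2.66 against 8.22 to 12.4) and of Ptch1 (16.4 against 26.7 to 38.4). Mutant 4 was the lowest mutant for the same genes, with 6.66 CPM of Hoxd13 (17.4 to 29.2 in the other mutants), 7.02 of Gli1 (12.04 to 16.0) and 19.9 of Ptch1 (30.9 to 46.9). Over the 11 libraries, log2 CPM of Grem1 correlated with that of Ptch1 at r = 0.861 and rho = 0.736 (permutation p 0.00121 and 0.0126, adjusted p 0.00546 and 0.0443), with that of Gli1 at r = 0.796 and rho = 0.827 (permutation p 0.00184 and 0.00286, adjusted p 0.00546 and 0.0400), and with that of Hoxd13 at r = 0.837 and rho = 0.755 (permutation p 0.00153 and 0.00975, adjusted p 0.00546 and 0.0443). The family held 14 relations of Grem1 to the genes of the Shh and Fgf loop and its Hox regulators, of which 7 passed at adjusted p under 0.05 for Pearson's r. The others of these were Hoxd11 (r = 0.852, rho = 0.745), Hoxd12 (r = 0.861, rho = 0.645), Fgf4 (r = 0.706, rho = 0.555) and Shh (r = 0.676, rho = 0.591), with adjusted permutation p of 0.00546, 0.00546, 0.0397 and 0.0457 for r, and of these 4 the rho passed for Hoxd11 alone. Levels of Shh (0.210 to 2.13 CPM) and Fgf4 (0 to 3.12 CPM) were low, and 28.3% of the exon bases of Shh lie in other genes. The share of all genes with such an r to Grem1 was not counted. The 3 most like it among 9619 genes, given below, had r of 0.935 to 0.961 over the 11 libraries. The strength of the 7 relations rests in part on control 5 and mutant 4: without these libraries, r was 0.541 for Ptch1, 0.549 for Gli1, 0.506 for Hoxd13, 0.660 for Hoxd11, 0.491 for Hoxd12, 0.295 for Fgf4 and 0.549 for Shh. Within the 6 mutants, which include mutant 4, r was 0.947 for Ptch1, 0.928 for Gli1 and 0.963 for Hoxd13. Those p-values treat the 11 libraries as exchangeable, although they fall into 4 litters. With values centred within litters and permuted only within them (exact permutation test, 576 arrangements, chosen after seeing the data), 0 of the 14 relations passed at an adjusted p under 0.05 and 1 (Hoxd13) had an unadjusted p under 0.05. Within litters r was 0.789 for Ptch1, 0.697 for Gli1, 0.768 for Hoxd13, 0.759 for Hoxd11, 0.782 for Hoxd12, 0.554 for Fgf4 and 0.565 for Shh, with adjusted p of 0.219 to 0.319 by that exact permutation test. Once genotype was fitted as well as litter, r was 0.582, 0.433, 0.611, 0.588, 0.744, 0.618 and 0.168 in the same order. Hoxa13, another distal Hox gene, had r = 0.531 and rho = 0.50 with Grem1 (permutation p 0.0949 and 0.122, adjusted p 0.166 and 0.190), and 0.109 without control 5 and mutant 4. For Fgf8, the main ridge Fgf, r was -0.0752 and rho 0.00 (permutation p 0.827, adjusted p 0.931).

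**Figure D3:**
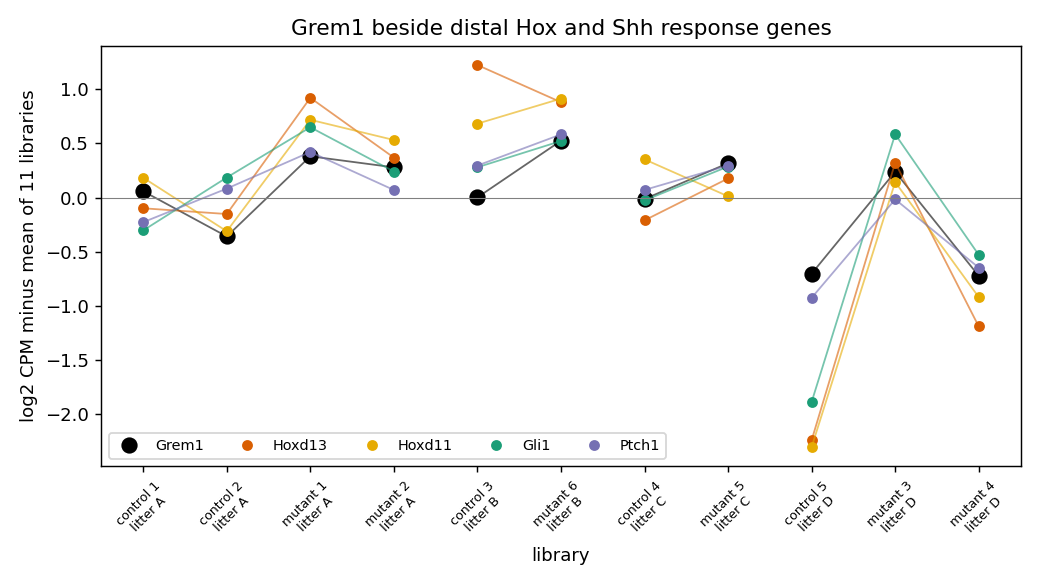
Log2 CPM of Grem1, Hoxd13, Hoxd11, Gli1 and Ptch1 in each library minus the mean of the 11 libraries (vertical axis), with libraries grouped by litter and lines joining libraries of a litter. All 5 genes lie below their mean in control 5 and mutant 4, and above or close to it in mutant 3 of that litter.

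Bmp4 (chromosome 14, 46383520 to 46390669, minus strand), the most abundant of the ligands, stood at 88.2, 109, 107, 121 and 119.6 CPM in controls 1 to 5. In mutants it had a lowest value of 115, a median of 124 and a highest value of 140.1 CPM. The mutants lie at the upper end of the controls and above it, with overlap through controls 4 and 5. The log2 fold change was 0.21 (SE 0.09, 95% interval 0.01 to 0.41, edgeR unadjusted p 0.0442, adjusted p 0.223). It was 0.48 in litter A and 0.21 in litter B, but -0.04 in litter C and -0.00286 in litter D, and without litter A it was 0.05 (adjusted p 0.797). A predicted gene covers 4.002% of the exon bases of Bmp4.

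Bmp7 (chromosome 2, 172868012 to 172940321, minus strand), which is made in both ridge and mesenchyme, had 47.5, 44.1, 50.3, 56.1 and 57.8 CPM in controls 1 to 5 and 51.4 to 59.5 CPM (median 57.2) in mutants. Its log2 fold change was 0.11 (SE 0.08, 95% interval -0.05 to 0.27, edgeR adjusted p 0.429). Bmp2 (chromosome 2, 133552159 to 133562885, plus strand), a ligand of the ridge and posterior mesenchyme, had only 24 to 64 reads a library. It stood at 1.398, 3.04, 2.51, 2.03 and 2.94 CPM in controls 1 to 5 and at 1.64 to 4.17 CPM (median 2.44) in mutants, with full overlap. Its log2 fold change was 0.13 (SE 0.29, edgeR adjusted p 0.846), and its 95% interval of -0.50 to 0.75 is the widest among the members. That interval holds the value of Grem1 on either side of 0, so that a difference of that size in Bmp2 is not excluded.

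The Msx genes encode homeobox repressors that answer to Bmp signals in distal and marginal mesenchyme and in the ridge. Msx1 (chromosome 5, 37820485 to 37824583, minus strand) stood at 99.4, 79.1, 82.1, 95.9 and 80.4 CPM in controls 1 to 5 and at 67.4 to 103 CPM (median 81.2) in mutants. Both the highest and the lowest library were mutants. The log2 fold change was -0.09 (SE 0.10, 95% interval -0.31 to 0.14, edgeR adjusted p 0.680). Msx2 (chromosome 13, 53466884 to 53473074, minus strand) had 23.1, 21.0, 31.5, 26.6 and 23.3 CPM in controls 1 to 5 and 17.9 to 30.3 CPM (median 23.9) in mutants. Its log2 fold change was -0.04 (SE 0.14, 95% interval -0.34 to 0.26, edgeR adjusted p 0.895), and the value by litter ran from -0.52 in litter B to 0.12 in litter A.

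Id1 (chromosome 2, 152736251 to 152737410, plus strand), a direct target of Smad1 and Smad5 in many cells, stood at 165, 178, 177, 169.6 and 205 CPM in controls 1 to 5. In mutants the lowest value was 148, the median 209 and the highest 239 CPM. Mutants 1, 2, 3 and 4 exceeded all controls and mutant 6 lay below all of them. The log2 fold change was 0.16 (SE 0.09, 95% interval -0.04 to 0.35, edgeR adjusted p 0.350), with -0.26 in litter B and 0.13 to 0.37 in the other litters. Id3 (chromosome 4, 136143497 to 136145755, plus strand) had 829.7, 1098, 777, 943 and 1092 CPM in controls 1 to 5 and 735 to 1252 CPM (median 1130.3) in mutants. Its log2 fold change was 0.14 (SE 0.09, 95% interval -0.06 to 0.35, edgeR adjusted p 0.403). Id2 (chromosome 12, 25093801 to 25096092, minus strand) had 473, 686, 596, 613 and 626 CPM in controls 1 to 5 and 537 to 714 CPM (median 629.7) in mutants. At 0.05 (SE 0.10, 95% interval -0.16 to 0.27, edgeR adjusted p 0.797) it had one of the smallest differences of the members.

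Smad6 (chromosome 9, 63953076 to 64022059, minus strand), an inhibitory Smad that Bmp signals induce as feedback, stood at 5.48, 5.92, 3.76, 3.95 and 6.73 CPM in controls 1 to 5 and at 4.72 to 7.54 CPM (median 6.17) in mutants. The log2 fold change was 0.28 (SE 0.15, 95% interval -0.05 to 0.62, edgeR adjusted p 0.311), and without control 5 it was 0.46 (adjusted p 0.102). It was positive in litters A, B and C (0.38, 0.32 and 0.71) and -0.22 in litter D. Only Grem1 among the members had a larger value, and Smad6 rests on 68 to 128 reads a library.

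Among the response genes, the highest correlations between members were those of Id3 with Id1 and with Smad6, and neither passed the correction. Control 3 and mutant 6, both of litter B, had the lowest Id3 and Smad6 levels of their groups, and mutant 2 had the highest Id3 and Smad6 levels of all libraries. Over the 11 libraries, r was 0.811 and rho 0.755 between Id1 and Id3 (permutation p 0.00232 and 0.00982, adjusted p 0.0977 and 0.221 over 45 pairs of members). Between Id3 and Smad6 r was 0.794 and rho 0.846 (permutation p 0.00434 and 0.00189, adjusted p 0.0977 and 0.0851). Between Id1 and Smad6 r was 0.636 and rho 0.636 (permutation p 0.0354 and 0.0400, adjusted p 0.398 and 0.453). Of the 45 pairs 0 passed at an adjusted p under 0.05, while 4 had an unadjusted p under 0.05 for r. Without the 2 libraries farthest from the median of the first gene, r was 0.733, 0.692 and 0.718 for these 3 pairs in turn, and once litter and genotype were fitted it was 0.754, 0.546 and 0.152. Permuted within litters, 0 of 45 pairs passed (exact permutation test), with adjusted p of 0.592, 0.592 and 0.625 for the 3. Mutant 2 also had the highest sum of red cell markers and the lowest of endothelial markers, and the part of these in the Id and Smad6 levels was not tested. Msx1 and Msx2 had r = 0.465 and Grem1 and Bmp4 r = 0.297.

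Litters and their interaction with genotype were tested in the same way. Litter differences gave 0 of 10 members at an adjusted p under 0.05 (edgeR), where 0.0885% of all genes passed, and 2 of 10 at an unadjusted p under 0.05, where 13.5% did. These were Id3 (p 0.0157, adjusted p 0.264) and Grem1 (p 0.0398, adjusted p 0.350). Without the filter on low counts these 2 members, Id3 and Grem1, passed for litter. That setting passed 1566 genes for genotype instead of 345, and its share of all genes for litter is not given here. The interaction asks whether a genotype difference varies by litter, on 3 residual degrees of freedom. It gave 0 of 10 members (0% of all genes) at an adjusted p under 0.05 by edgeR and 0 of 10 at an unadjusted p under 0.05, where 3.82% of all genes were.

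In the wider pathway, 57 other genes were listed by role, and 48 had enough reads to be tested. Skil passed and was lower (1.48% of all genes passed and were lower), and 0 passed and were higher, where 0.702% did. At an unadjusted p under 0.05 there were 11 of 48, where 21.4% of all genes were. The median log2 fold change of the 48 was 0.03, with 25 positive and 23 negative values. Skil encodes SnoN, a nuclear corepressor of Smads. It stood at 117, 95.9, 159, 119 and 50.03 CPM in controls 1 to 5 and at 38.8 to 84.6 CPM (median 53.9) in mutants, and control 5 lay among the mutants. The log2 fold change was -0.78 (SE 0.16, edgeR adjusted p 0.0418), negative in 4 of 4 litters. A Skil transcript holds a run of 22 T bases. Levels of transcripts with long T runs differed between libraries: the mean log2 CPM of 959 genes with runs of at least 18 T was 4.72 to 4.82 in controls 1 to 4, 4.45 in control 5 and 4.26 to 4.63 in mutants. With that mean as a covariate Skil had -0.11 (edgeR adjusted p 0.785), and it lost its call in 14 of 23 alternatives, 9 of them with 1 library left out. The mean includes Skil itself, and in all mutants it lies below controls 1 to 4. The parts of genotype and covariate in Skil therefore cannot be told apart by this fit. All members have runs of at most 15 T, the longest in Id3. With the covariate, Grem1 had 0.59, and the values of Bmp2, Bmp4, Bmp7, Msx1, Id1, Id2 and Id3 changed sign, none with a call.

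**Figure D4:**
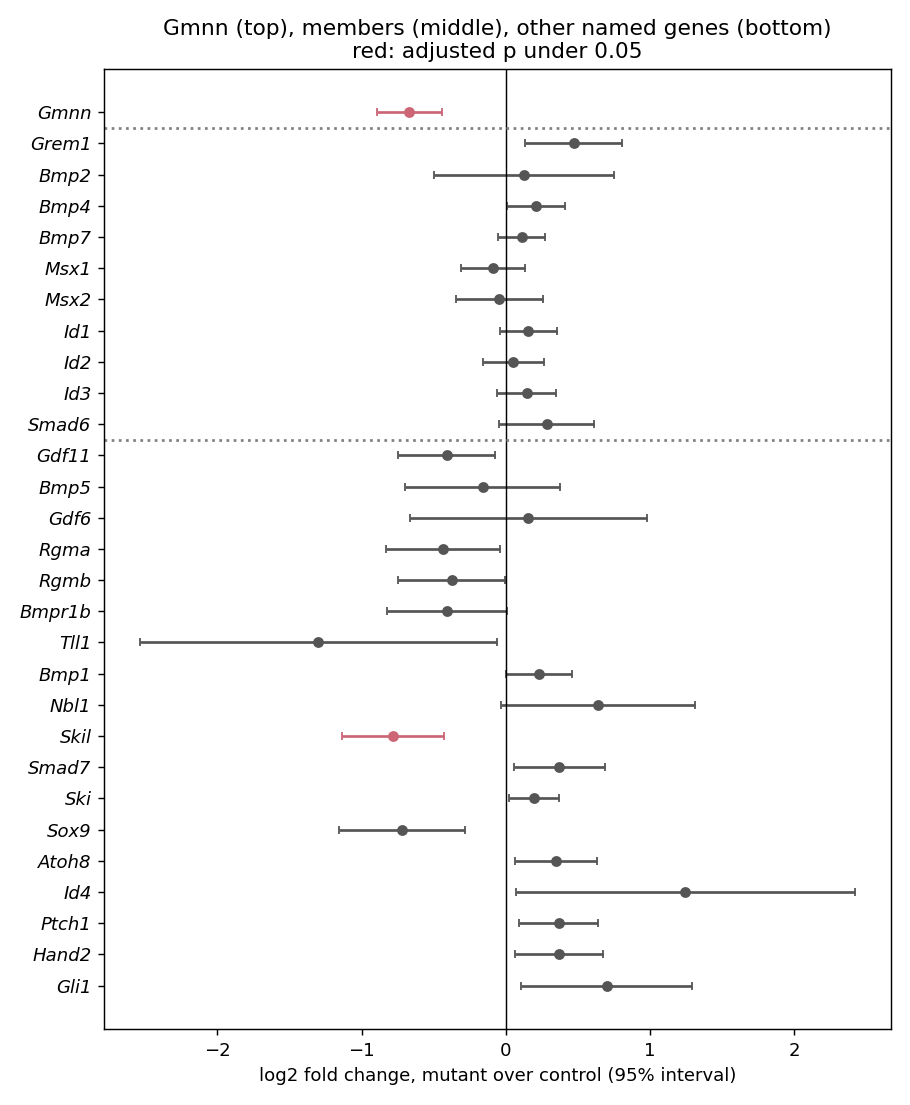
Log2 fold change of mutant over control (horizontal axis) with its 95% interval for Gmnn, the 10 members and 18 other named genes, red where the adjusted p is under 0.05. Gmnn and Skil are red, and the intervals of 8 of the 10 members include 0.

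By role, 4 of 9 other ligands, 10 of 10 receptors and co-receptors, 12 of 15 antagonists and modulators, 11 of 11 Smads and inhibitors, and 11 of 12 response genes could be tested. Apart from Skil none passed (edgeR quasi-likelihood test). The ligand gene Gdf11 had a mean of 94.998 ± 25.6 CPM (SD, n = 5) over controls, and mutants had 67.5 ± 17.8 CPM (SD, n = 6) (-0.41, adjusted p 0.158), and it holds a run of 19 T. The co-receptor genes Rgma and Rgmb had -0.43 and -0.37 (adjusted p 0.199 and 0.231) and the type I receptor gene Bmpr1b had -0.41 (adjusted p 0.247). For the main type I receptor gene of the limb, Bmpr1a, the value was 0.04 (95% interval -0.16 to 0.23). The signal carriers Smad1, Smad5 and Smad4 had 0.09, -0.05 and 0.02, with adjusted p of 0.570, 0.770 and 0.919 by edgeR. Noggin (Nog), another secreted antagonist, had too few reads to be tested, at no more than 0.662 CPM.

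Of the 11 other response genes tested, 6 had positive and 5 negative values (median 0.11), and 0 passed. Examples with negative values were Hand1 at -0.95 (SE 0.86), Runx2 at -0.59 (SE 0.33) and Tbx3 at -0.14 (SE 0.09, with a run of 21 T). Control 2 held 70.9 CPM of Hand1, the other controls 1.42 to 11.7 and the mutants 3.07 to 16.9 CPM. Hand1 was higher in mutants in 2 litters and lower in 2. Positive values without a call were found in several genes that answer to Bmp signals: the inhibitory Smad gene Smad7 had 0.37 (edgeR adjusted p 0.172, with a run of 19 T), the Smad target Atoh8 0.35 (adjusted p 0.157) and Id4 1.25 (adjusted p 0.213, at a mean of 0.577 CPM in mutants). The corepressor gene Ski had 0.19 (adjusted p 0.185). Sox9, the cartilage master gene, had 96.7 ± 56.5 CPM (SD, n = 5) in the controls, and the mutants had 50.7 ± 11.001 CPM (SD, n = 6) (-0.72, edgeR adjusted p 0.0725). It has a run of 18 T, and without control 5 it passed (-0.95, adjusted p 0.0249), while with the T-run covariate it had -0.05 (adjusted p 0.959). That covariate includes Sox9 and overlaps with genotype, so that the part of each cannot be told apart. Among processing and antagonist genes, Tll1 had -1.30, Bmp1 0.23 and Nbl1 0.64 (edgeR adjusted p 0.215, 0.229 and 0.257), and of the lowly expressed ligand genes Bmp5 had -0.16 and Gdf6 0.16 (adjusted p 0.760 and 0.855). For Bmp5, 46.7% of exon bases lie in another gene, so that its count is uncertain.

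Of the 14 genes of the Shh and Fgf loop and its Hox regulators, all were tested and 0 passed (edgeR), where 2.18% of all genes did, with 5 at an unadjusted p under 0.05, where 21.4% of all genes were. Their median log2 fold change was 0.37. Gli1 had 0.70 (SE 0.27, adjusted p 0.170), with 1.91 in litter D and 0.24 to 0.50 in the others. Ptch1 had 0.37 (SE 0.13, adjusted p 0.128) and was higher in 4 of 4 litters. Hand2, a posterior transcription factor that acts before Shh, had 0.37 (SE 0.14, adjusted p 0.161), but 19.8% of its exon bases lie in another gene. Fmn1, whose introns carry known enhancers of Grem1, had 0.14 (adjusted p 0.776) and Fgf8 had 0.04 (adjusted p 0.947). By litter the value of Fgf8 was 0.80 in A, -1.22 in B, -0.30 in C and -0.02 in D. Its interaction of genotype with litter had an unadjusted edgeR p of 0.00645 (adjusted p 0.950). Of the 14 genes 5 had an unadjusted interaction p under 0.05, where 3.82% of all genes had, and 0 passed. Without a filter Gli1 and Ptch1 passed by edgeR (adjusted p 0.000289 and 0.0204), where 1566 of all genes did. Gli1 also passed by DESeq2 (0.73, adjusted p 0.0407), where 1194 of all genes did, while Ptch1 did not (adjusted p 0.0570). Without control 5 Gli1 had 0.39 (edgeR adjusted p 0.320).

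The genes most like 3 of the members over the 11 libraries, among 9619 genes with a mean of at least 5 CPM, are given as a description with no test. They were Gnai1, Myo18a and Fkbp5 for Grem1 (Pearson's r 0.961, 0.939 and 0.935 and Spearman's rho 0.873, 0.891 and 0.936). For Bmp4 they were Zfp697, Setd7 and Dcxr (r 0.925, 0.897 and 0.897), and for Msx2 Ttc39c, Brd7 and Kctd3 (r 0.814, 0.792 and 0.774). The libraries share litters, genotype and depth, and the best of 9619 genes has a high r in any such search.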

How the data were processed

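The members and gene lists were chosen with earlier results of these data known. The authors deposited unnormalized read counts for each gene name, made with featureCounts 1.4.6-p4 on mm10 and GENCODE M9 with a mapping quality of at least 10, per the file headers. STAR 2.5.4b is named in the submitters' processing notes. The header command sets no strand or read-pair option, so counts ignore strand, and reads over exons of several genes are left out by the tool's default. The command lists 12 alignment files, and the table used here has 11 sample columns. The exon length column is also deposited by the authors.

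Counts were analysed with edgeR 4.0.16 in R 4.3.3: filterByExpr kept 15821 genes holding 99.9% of counts, with TMM scaling and a quasi-likelihood F test, two-sided, on litter plus genotype. Benjamini-Hochberg adjustment ran over all genes tested, with a threshold of 0.05. SE and 95% intervals come from that test. Log2 CPM used a prior count of 2, and RPKM is CPM per kilobase of the deposited length. Litter, from the titles, pairs the samples: deviations from group means correlated at a median of 0.297 over 8 same-litter pairs and -0.111 over 22 others (across genes, so with no p). Same-litter pairs ran from -0.389 to 0.571 and the others from -0.455 to 0.318, so that the ranges overlap. No 2 libraries of a group agreed within sampling noise: over 25 pairs, chi-square divided by its degrees of freedom was at least 7.38. Permutation tests of correlations used 100000 resamples and were two-sided, and those within litters enumerated all arrangements. The fit was checked on simulated counts. Alternatives were RLE and upper-quartile scaling, 2 other filters, DESeq2 1.42.0, limma-voom (limma 3.58.1), no block, omission of each library or litter, and a T-run covariate from GENCODE transcripts. Named genes were the members, Gmnn and, in each role, the 3 smallest p and any gene past the threshold, with the leading marker gene and the 3 most correlated genes of Grem1, Bmp4 and Msx2. Hand1, Runx2, Tbx3, Bmpr1a, Smad1, Smad5, Smad4, Nog, Fmn1 and Fgf8, and Shh, Fgf4 and the Hox genes beside Grem1, were named after their values were seen. So were the mesenchyme markers Lhx9, Lhx2, Prrx2, Twist1, Tbx5 and Pdgfra, and the muscle precursor markers Lbx1, Myf5 and Myod1. The labels do not say that each library is 1 embryo, so that p-values measure the spread between these libraries.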

Additional observations from a re-analysis of the deposited data

Results flagged for a closer look

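Within each genotype, the highest and lowest library of each member was set against the spread of the others by Dixon's criterion. Of 20 such sets 1 was beyond the critical value, and chance gives about 1. It was Grem1 in mutant 4, at 11.5 CPM, while the remaining mutants lay between 22.6 and 27.5 CPM.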

How the results depend on the processing

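Of 230 log2 fold changes of members under alternatives, 213 kept their direction and side of the threshold, 15 changed sign and 2 passed. The count of members past the threshold was 0 except for 1 without the filter on low counts and 1 with DESeq2, in both cases Grem1, and it was 0 with each library left out. Without the filter 2 members (Grem1 and Id3) passed for litter, a setting whose share of all genes for litter is not given here.

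The count over all genes was 345. It was 1566 without the filter, 550 with at least 1 CPM in 5 libraries and 1194 with DESeq2. It was 13 with no replicate block for litter and 2 with the T-run covariate. Without litter A, B, C or D it was 9, 3, 1 and 148, and with 1 library left out it ran from 1 (without control 4) to 850 (without control 5). Of the calls 32.2% were higher in mutants, and 43.1% with upper-quartile scaling, which moved the median of all genes to 0.04. Of the other pathway genes 4 passed without the filter (Skil, Gdf11, Sox9 and Hand1), 0 with no replicate block, 0 with the T-run covariate, 0 without litter A, 0 without litter B, 0 without litter C, and 0 to 2 with 1 library left out (Skil and Sox9 without control 5). For Hand1, control 2 stood at 70.9 CPM and the other libraries at no more than 16.9 CPM.

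Signs turned only in values without a call. Bmp2 had -0.059 without litter A, Msx2 0.071 without litter B and Gdf6 -0.056 without litter D. With the T-run covariate Bmp2 had -0.66, Bmp4 -0.031, Bmp7 -0.045, Msx1 0.042, Id1 -0.026, Id2 -0.090, Id3 -0.075, Gdf11 0.16 and Bmp5 0.017. With 1 library left out the log2 fold change ran from -0.12 to 0.24 for Bmp2, -0.13 to 0.071 for Msx2, -0.013 to 0.14 for Id2, -0.29 to 0.052 for Bmp5 and -0.057 to 0.47 for Gdf6. The cause was not tested. That covariate overlaps with genotype, since all mutants lie below controls 1 to 4 in it, so that the part of each cannot be told apart. With 1 library left out, Smad6 ran from 0.19 to 0.46. Of the 14 relations of Grem1 to loop genes, 7 passed over all libraries and 0 with permutation within litters as a replicate block, an alternative chosen after seeing the data. The share of all genes with such an r was not counted. Bmp2, with the fewest reads, has the widest interval, and the part of depth in it was not tested.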
